A study of Homo sapiens with 16 samples.

Results

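INS-IGF2 positive cells are 74 of the 603 SK-N-AS cells in the series (12.3%). They were chosen by the count in a single row of the deposited table, which joins INS-IGF2 and INS: a cell is positive with 2 or more counts and negative with 0, and 464 cells were negative. The 65 cells with 1 count belong to neither group and are given beside them. SK-N-AS is an established human neuroblastoma cell line without amplification of MYCN. Its RNA was measured cell by cell with MARS-seq, a method that reads the 3' ends of polyadenylated RNA from cells sorted into the wells of plates, and the cells were untreated and grown in serum. The labels describe 16 samples, but the columns of the table name none of them, so which sample or plate a cell came from is not known and all cells are treated as 1 sample. No test between groups is possible with 1 sample, and every interval below covers counting error only.

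INS encodes insulin, and INS-IGF2 is a readthrough transcript that starts at INS and continues into IGF2, an imprinted growth factor gene. The row cannot tell the transcripts apart, and the table does not show whether reads from the 3' end of IGF2 fall in it, so it is called INS-IGF2 here. Neuroblastoma arises from the sympathoadrenal lineage of the neural crest, whose cells make catecholamines and store them with granins and neuropeptides in dense-core granules. Neuroblastoma lines are commonly placed between an adrenergic state, with genes such as GATA2, GATA3 and DDC, and a mesenchymal state, with genes such as AXL, CD44 and VIM. SK-N-AS is usually counted among the mesenchymal lines.

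The table's row held 1270 counts over all cells, 94.9% of them in positive cells. Their counts ran from 2 to 199 with a median of 7. The row was unevenly spread: the cell with 199 counts held 15.7% of all of its counts, the first 5 cells 33.9% and the first 20 cells 69.1%. With the INS-IGF2 row included, positive cells had 1001 to 7670 counts in total (median 2438), and negative cells 1004 to 42404 (median 2078.5). The 1-count cells had a median of 2101. Positive cells had a count in a median of 1322.5 genes and negative cells in 1148. Ribosomal protein genes took 17.3% of the counts of positive cells and 16.8% of those of negative cells. The nuclear RNA MALAT1 took 0.0522% in positive cells and 0.0249% in negative cells. Because depth differed between cells, shares of cells with a count are given at equal depth.

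**Figure D1:**
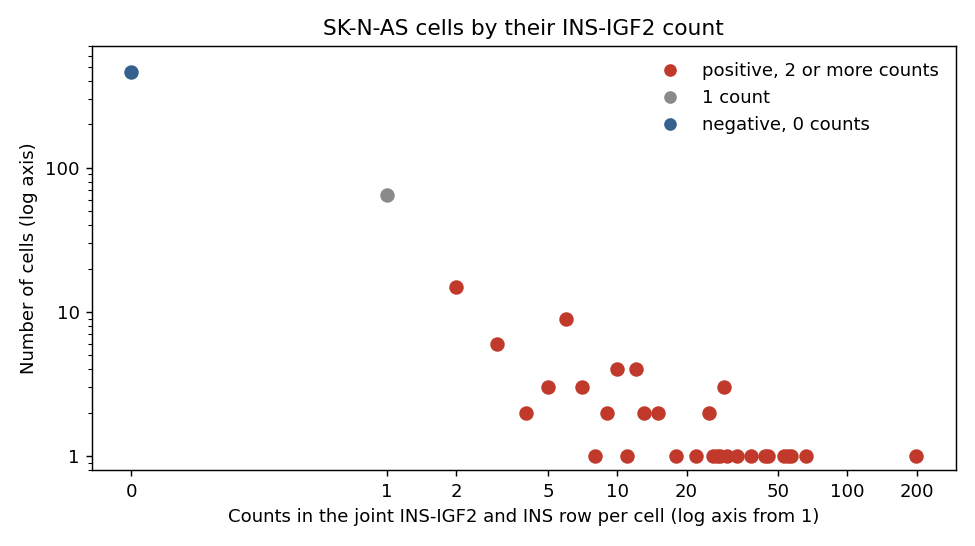
Number of SK-N-AS cells (log axis) at each count in the joint INS-IGF2 and INS row (log axis from 1). The 74 positive cells spread from 2 to 199 counts, 65 cells had 1 count and 464 had 0.

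Column names are cell barcodes, and 239 of 364 distinct barcodes occur in 2 columns. The columns therefore fall into a first run of 316 cells, called barcode set 1, and a second run of 287, called barcode set 2. These runs are not groups of the study. Positive cells made up 34 of 316 cells of set 1 (10.8%, 7.57 to 14.7) and 40 of 287 cells of set 2 (13.9%, 10.1 to 18.5). Both sets thus held positive cells at overlapping shares, and for the genes farthest from 0 the ratio within each set is given where one lay outside the interval of the pooled ratio.

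Promoter sequences are shown for the genes at both ends of the comparison. The bases just before the start of INS, a gene of the row that chose the cells, are followed by those of CHGA and GCG, which were highest in positive cells relative to negative ones, and of SERPINB2 and MT2A, which were among the farthest below. They come from RefSeq on GRCh38.p14, whereas the reads were aligned to hg19, so these coordinates apply to the sequences only. Capitals mark matches on either strand to a CRE core (TGACG, as well as the full TGACGTCA that holds it), TEAD (CATTCC), AP-1 (TGANTCA) or TATA box (TATAAA) motif. An E-box, spelled CAGCTG, was searched too, as was a site of GATA family factors, spelled TGATAA, and neither had a match in these 5.
INS (chr11:2161210-2161459, minus strand): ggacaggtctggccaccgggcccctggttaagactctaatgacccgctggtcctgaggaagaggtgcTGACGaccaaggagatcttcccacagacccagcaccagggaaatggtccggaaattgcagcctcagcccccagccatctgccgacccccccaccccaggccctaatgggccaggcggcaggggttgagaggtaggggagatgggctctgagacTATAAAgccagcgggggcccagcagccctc
CHGA (chr14:92922900-92923149, plus strand): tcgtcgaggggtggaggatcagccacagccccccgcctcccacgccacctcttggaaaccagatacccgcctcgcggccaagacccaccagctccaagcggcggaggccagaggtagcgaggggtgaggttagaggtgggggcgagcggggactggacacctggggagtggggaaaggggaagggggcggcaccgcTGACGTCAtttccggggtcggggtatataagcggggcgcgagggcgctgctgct
GCG (chr2:162152248-162152497, minus strand): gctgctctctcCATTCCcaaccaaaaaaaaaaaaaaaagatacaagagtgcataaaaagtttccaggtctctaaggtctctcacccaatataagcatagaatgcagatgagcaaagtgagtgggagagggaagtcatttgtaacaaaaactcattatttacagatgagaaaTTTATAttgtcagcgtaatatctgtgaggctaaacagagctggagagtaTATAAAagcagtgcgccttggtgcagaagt
SERPINB2 (chr18:63887455-63887704, plus strand): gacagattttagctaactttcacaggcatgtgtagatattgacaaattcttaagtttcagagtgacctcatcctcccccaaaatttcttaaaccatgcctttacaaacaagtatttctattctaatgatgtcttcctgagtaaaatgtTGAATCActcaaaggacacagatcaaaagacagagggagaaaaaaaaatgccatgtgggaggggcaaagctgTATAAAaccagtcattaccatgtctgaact
MT2A (chr16:56608334-56608583, plus strand): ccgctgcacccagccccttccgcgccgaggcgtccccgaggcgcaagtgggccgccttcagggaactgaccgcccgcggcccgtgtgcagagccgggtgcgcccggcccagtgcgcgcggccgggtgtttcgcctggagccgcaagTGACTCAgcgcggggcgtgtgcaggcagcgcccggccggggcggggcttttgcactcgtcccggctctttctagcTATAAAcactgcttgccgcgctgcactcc

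Of the 15 genes named below as higher in positive cells, 13 had a promoter entry of 250 bases before to 50 after the start, and of the 15 named as lower, 10 did. The full CRE lay in 1 of the 13, CHGA, in 0 of the 10 and in 1.98% of all 27305 promoters. The CRE core lay in 2 of the 13, in 2 of the 10 and in 25% of all. The AP-1 motif lay in 2 of the 13 (PTN and CRABP1), in 5 of the 10 (SERPINB2, MT2A, ECM1, S100A2 and AMIGO2) and in 7.76% of all. The TEAD motif lay in 3 of the 13, in 0 of the 10 and in 14% of all, and the TATA box in 3 of the 13, in 3 of the 10 and in 12%. The E-box lay in 2 of the 13, in 2 of the 10 and in 17.7%, and the GATA motif in 1 of the 13, in 0 of the 10 and in 7.76%. These are matches of letters in a window and do not show that a factor binds.

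Levels are CPM, counts scaled to the usual fixed total of the group, with the INS-IGF2 row left out. Over 4301 rows with 50 counts or more in both groups together, the median log2 ratio of positive over negative cells was -0.01. A row could reach 50 counts through the group where it was high, so the members of a list counted past 1 depend partly on this minimum. A range in parentheses after a log2 ratio or a share is its 95% interval. At a log2 ratio of 1 or more lay 186 rows, which is 4.32% of those compared. At -1 or less lay 353 rows, which is 8.21%. Among 441 rows with 500 counts or more, 5 (1.13%) lay at 1 or above and 19 (4.31%) at -1 or below. Genes named as higher are the 15 rows with the highest lower end of the interval, and genes named as lower the 15 with the lowest upper end, so their distance from 0 follows from the choice.

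Granule, hormone and neurotransmitter genes were among the rows highest in positive cells. The 5 genes given as markers of these cells, CHGA, NPY, DDC, PTN and C7, were all among the 15. Markers and groups were chosen with earlier results of these data known, so this is a description and no separate support. Chromogranin A (CHGA), the major soluble protein of dense-core granules, had 854 CPM in positive cells and 11.3 CPM in negative cells. Its log2 ratio was 6.25 (5.44 to 7.18), the highest by this rule of all rows compared. It was 5.40 without the 10 cells with most INS-IGF2 and, in an alternative added after seeing the data, 4.75 with positive cells of 2 to 9 counts only. GCG, the precursor of glucagon and GLP-1, had 531 CPM in positive cells and 24.2 CPM in negative cells, a log2 ratio of 4.45 (3.85 to 5.11). NPY, a neuropeptide released with noradrenaline by sympathetic neurons, had 508 CPM in positive cells and 37.2 CPM in negative cells, a log2 ratio of 3.77 (3.25 to 4.32). DDC, the enzyme that makes dopamine from L-DOPA, had 793 CPM in positive cells and 77.9 CPM in negative cells, a log2 ratio of 3.35 (2.97 to 3.73). The DDC ratio was 2.49 within set 1 but 3.64 within set 2.

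Of the 15, 3 encode secreted proteins outside the granule and hormone genes. PTN, the heparin-binding growth factor pleiotrophin, had 963 CPM in positive cells and 89.1 CPM in negative cells, a log2 ratio of 3.43 (3.08 to 3.79). C7, a component of the complement membrane attack complex, had 579 CPM in positive cells and 69.2 CPM in negative cells, a log2 ratio of 3.06 (2.65 to 3.49). DCN, the collagen-binding proteoglycan decorin, had 413 CPM in positive cells and 67.5 CPM in negative cells, a log2 ratio of 2.61 (2.15 to 3.07), with 1.80 within set 1 and 3.20 within set 2. Counts of PTN were the most widely spread of these, in 52 of 74 positive cells and 67 of 464 negative cells. C7 counts lay in 38 of 74 positive cells and 48 of 464 negative cells, and DCN counts in 38 of 74 positive cells and 58 of 464 negative cells.

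Receptors and signalling genes were also among the 15. RET, the receptor tyrosine kinase for GDNF family ligands, had 237 CPM in positive cells and 31.2 CPM in negative cells, a log2 ratio of 2.93 (2.28 to 3.59). CHRNA3, a nicotinic acetylcholine receptor subunit of autonomic ganglia, had 289 CPM in positive cells and 33.8 CPM in negative cells, a log2 ratio of 3.10 (2.50 to 3.72), with 2.57 within set 1 and 4.01 within set 2. SHD, an adaptor with an SH2 domain, had 375 CPM in positive cells and 19 CPM in negative cells, a log2 ratio of 4.30 (3.60 to 5.05). CRABP1, which binds retinoic acid in the cytoplasm, had a log2 ratio of 3.36 (2.62 to 4.14), and TMOD1, which caps the slow-growing end of actin filaments, 3.54 (2.67 to 4.46). The remaining 3 were FAM167A at 2.85, TMEM176B at 2.93 and PRRT4 at 2.79, with PRRT4 at 2.02 within set 1 and 3.41 within set 2. All 15 ratios were above 0 in each barcode set taken alone. The rows were chosen on the pooled cells of both sets, so this is no independent check. RET differed most between the sets, with 2.04 within set 1 but 4.24 within set 2.

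Genes lower in positive cells included several known from the mesenchymal state and from adhesion and proteolysis. SERPINB2, an inhibitor of plasminogen activators, had 1 count in positive cells and 399 in negative cells, a log2 ratio of -6.19 (-11.49 to -3.70). AXL, a receptor tyrosine kinase and a marker of the mesenchymal state, had 85.4 CPM in positive cells and 464 CPM in negative cells, a log2 ratio of -2.44 (-3.21 to -1.77). TGM2, which crosslinks proteins, had 28.5 CPM in positive cells and 430.2 CPM in negative cells, a log2 ratio of -3.92 (-5.37 to -2.78), with -5.39 within set 1 and -3.27 within set 2. MT2A, a metal-binding metallothionein, had 214 CPM in positive cells and 1197 CPM in negative cells, a log2 ratio of -2.49 (-2.95 to -2.06). NT5E, the surface enzyme CD73 that makes adenosine, had 19 CPM in positive cells and 149.7 CPM in negative cells, a log2 ratio of -2.98 (-4.87 to -1.60).

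The plasminogen activators were lower as well. PLAT, tissue plasminogen activator, had 71.2 CPM in positive cells and 406 CPM in negative cells, a log2 ratio of -2.51 (-3.36 to -1.77). PLAU, the urokinase-type activator, had 2 counts in positive cells and 52 in negative cells, a ratio of -2.25 (-5.33 to -0.32). Both activators and the inhibitor SERPINB2 were thus lower in positive cells.

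Among the rest of the 15, TMEM158 had 1 count in positive cells and 154 in negative cells (log2 ratio -4.81, -10.12 to -2.31), and the Wnt modulator DKK2 had 1 count in positive cells and 118 in negative cells (-4.43, -9.74 to -1.92). The hyaluronan receptor layilin (LAYN) had 3 counts in positive cells and 168 in negative cells (-3.35, -5.64 to -1.78), and the matrix protein THBS4 had 2 counts in positive cells and 121 in negative cells (-3.46, -6.53 to -1.58). The calcium-binding protein S100A2 had 38.0 CPM in positive cells and 258 CPM in negative cells, a log2 ratio of -2.76 (-3.99 to -1.77). AMIGO2, an adhesion protein, had 28.5 CPM in positive cells and 203 CPM in negative cells, a log2 ratio of -2.84 (-4.30 to -1.69). The matrix glycoprotein ECM1 had 0 counts in positive cells and 80 in negative cells, which is at least 4.86-fold lower with 3 counts set as the floor over the group. PPP2R2B, a regulatory subunit of protein phosphatase 2A, had 0 counts in positive cells and 63 in negative cells, at least 3.83-fold lower. In 10 of the 15, both barcode sets gave a ratio and all of these were below 0, and in the other 5 a set had 0 counts in positive cells. These rows too were chosen on the pooled cells of both sets.

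**Figure D2:**
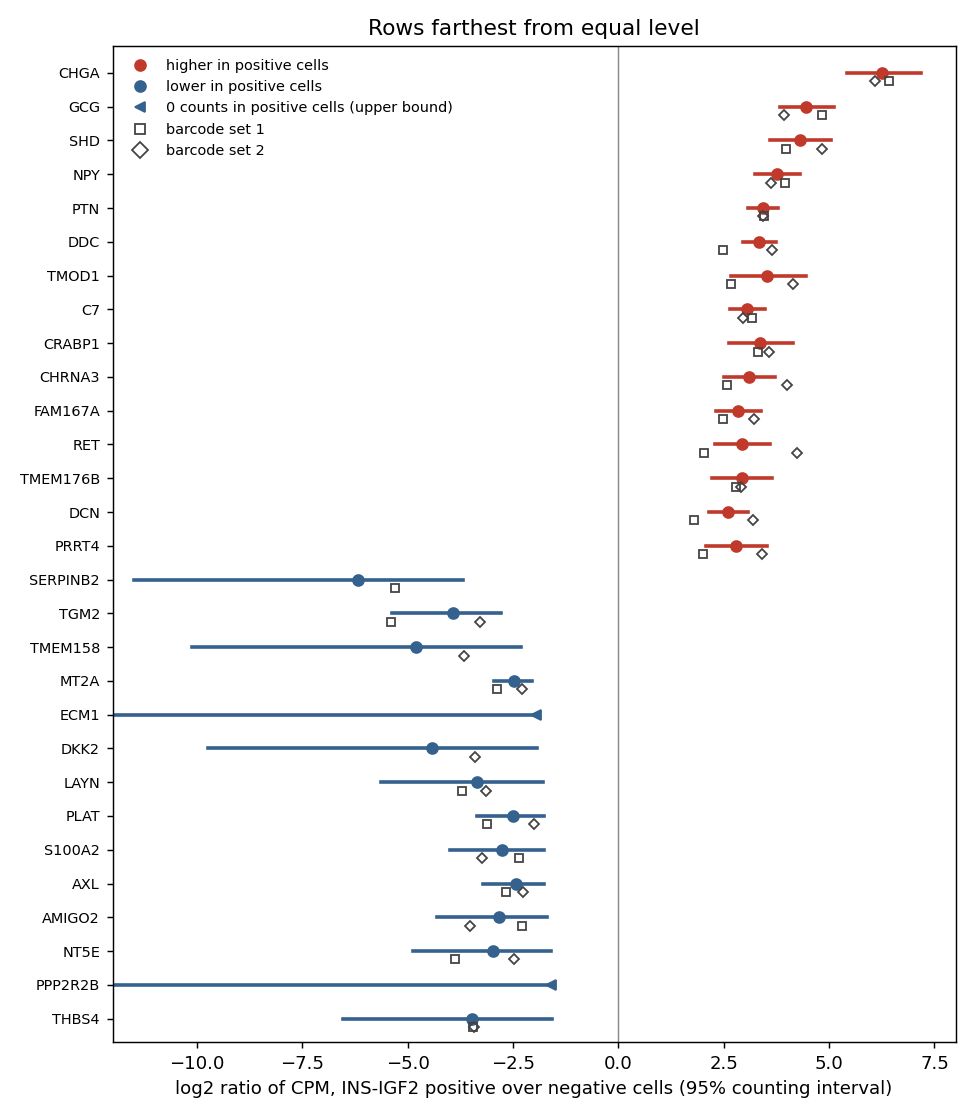
Log2 ratio of CPM in INS-IGF2 positive over negative cells for the 15 higher rows and 14 of the 15 lower rows, with 95% counting intervals, and the ratio within each barcode set. CHGA stands apart at 6.25, and all 15 higher rows, chosen on the pooled cells, lie above 0 in both sets.

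Shares of cells were compared at equal depth, with every cell thinned to 1100 counts, which kept 70 positive, 59 1-count and 431 negative cells. No cell type known to lack these genes is in the table, so a background share from free RNA could not be read. CHGA had a count in 18.6% of positive cells (10.3 to 29.7) and 1.16% of negative cells (0.378 to 2.69). Without thinning, 28.4% of positive cells and 2.59% of negative cells had CHGA. CHGA counts per thinned cell ran from 0 to 13 in positive cells and from 0 to 2 in negative cells, with a median of 0 in both. So most positive cells had no CHGA count, and the groups overlapped at 0.

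GCG had a count in 25.7% of positive cells (16 to 37.6) and 2.32% of negative cells (1.12 to 4.23). NPY had one in 31.4% of positive cells (20.9 to 43.6) and 3.71% of negative cells (2.14 to 5.96). DDC had one in 38.6% of positive cells (27.2 to 51.0) and 7.89% of negative cells (5.52 to 10.8). For these 3 genes too, most positive cells had no count at this depth. C7 had a count in 32.9% of positive cells (22.1 to 45.1) and 6.96% of negative cells (4.75 to 9.79). PTN was the most often seen, in 52.9% of positive cells (40.6 to 64.9) and 7.89% of negative cells (5.52 to 10.8), and without thinning in 70.3% of positive cells and 14.4% of negative cells.

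Among the lower genes, MT2A had a count in 11.4% of positive cells (5.07 to 21.3) and 60.8% of negative cells (56.0 to 65.4). AXL had one in 7.14% of positive cells (2.36 to 15.9) and 34.8% of negative cells (30.3 to 39.5). Without thinning, 13.5% of positive cells and 55.4% of negative cells had AXL. SERPINB2 had one in 0 of 70 positive cells, a share of up to 5.13% by the exact interval, and in 21.3% of negative cells. The direction of each of these shares was that of the CPM.

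**Figure D3:**
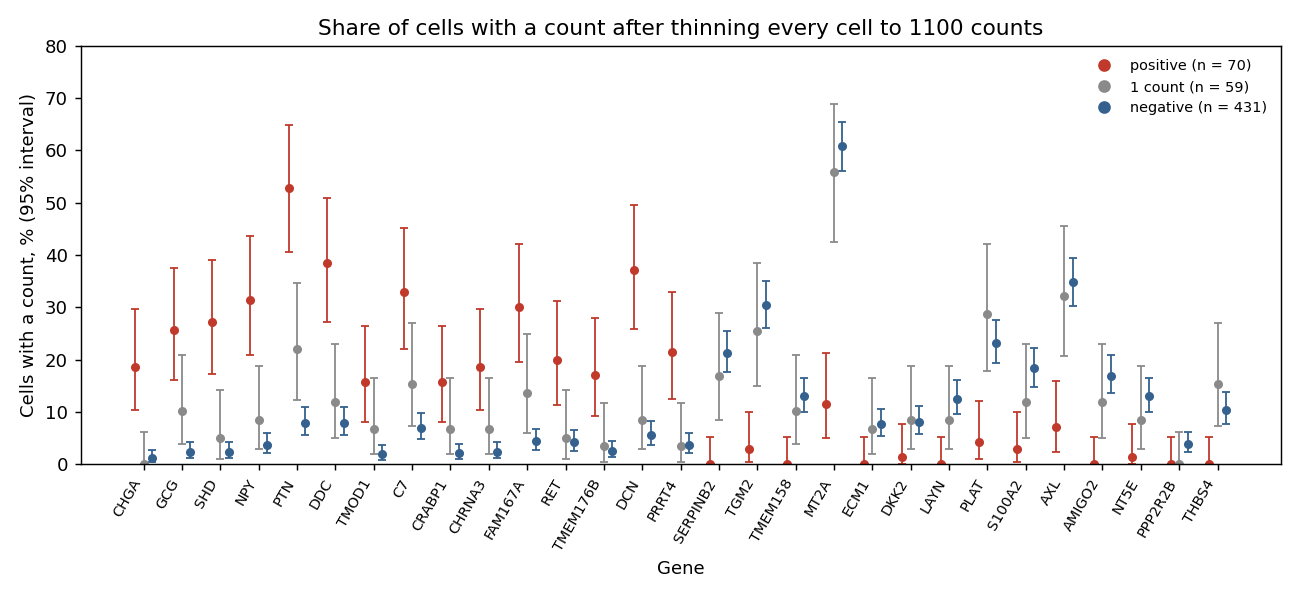
Share of cells with a count (%) after thinning to 1100 counts, with exact binomial 95% intervals, in 70 positive, 59 1-count and 431 negative cells. PTN reached 52.9% of positive cells against 7.89% of negative cells, and MT2A 11.4% of positive cells against 60.8% of negative cells.

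These genes were not all seen in the same positive cells, and at this depth a count of 0 does not show that a cell lacked the RNA. Of CHGA, GCG, NPY, DDC, C7 and PTN, at least 1 was seen in 61 of 70 positive cells (87.1%), 10 of them with at least 4 genes, and at least 2 in 45 (64.3%). Among negative cells, at least 1 was seen in 89 of 431 (20.6%) and at least 2 in 25 (5.80%). No cell in either group had all 6. Summed over the 15 higher rows, the median thinned cell had 6.5 counts among positive cells and 0 among negative cells, and the highest cell had 24 among positive cells and 20 among negative cells. At or above the positive median lay 11 of 431 negative cells (2.55%) and 7 of 59 1-count cells (11.9%). Summed over the 15 lower rows, the median was 0 in positive cells and 4 in negative cells. Since both sets of rows were chosen on these cells, the separation is a description.

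Within positive cells at full depth, some genes met in the same cells more than others. Of 22 positive cells with GCG, 21 had PTN, 17 had DDC, 16 had C7 and 10 had CHGA. Of 24 positive cells with NPY, 17 had DDC and 4 had CHGA. CHGA and NPY thus shared 4 of 21 CHGA cells, whereas CHGA and GCG shared 10 of 21. Counts of CHGA were concentrated: 10 cells of all 603 held 83.9% of them, compared with 27.9% for PTN.

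The 10 cells with most INS-IGF2 had 199, 66, 57, 55, 53, 45, 44, 38, 33 and 30 counts in the row. In the same order they had 49, 2, 0, 4, 0, 7, 19, 1, 1 and 11 CHGA counts, so 8 of the 10 had CHGA. GCG had 1 count in 1 of these cells, NPY 2 counts in 1 and DDC 3 counts in 1. AXL had 1 count in each of 3 of them. Of these cells, 6 had CHGA and no GCG, NPY or DDC.

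By tier of the INS-IGF2 count (0, 1, 2 to 4, 5 to 9 and 10 or more, with 464, 65, 23, 18 and 33 cells), CHGA had 11.3, 0, 135, 532 and 1519.8 CPM. It was highest in the last tier, where 49 of its 145 counts lay in the cell with 199 INS-IGF2 counts. Cells with CHGA were few, 12 of 464, 0 of 65, 3 of 23, 3 of 18 and 15 of 33 in the same order. GCG had 24.2, 106, 451, 778 and 461 CPM, NPY 37.2, 170.4, 436, 859.7 and 377 CPM and DDC 77.9, 241, 557, 1044 and 828 CPM. These 3 genes were highest at 5 to 9 counts and lower at 10 or more. Counting intervals overlapped for GCG and DDC but not for NPY (619.6 to 1162 at 5 to 9, 264 to 522 at 10 or more). The NPY counts lay in 9 of 18 cells at 5 to 9 and in 7 of 33 cells at 10 or more. Spread between cells is not in these intervals, so a difference between the tiers was not tested. C7 had 69.2, 194, 286, 716 and 713 CPM, and PTN 89.1, 394, 843, 1126 and 964 CPM.

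Across the same tiers MT2A had 1197, 899, 361, 205 and 115 CPM, and AXL 464, 411, 181, 61.4 and 31.4 CPM. Both were lower in each tier than in the one before. SERPINB2 had 345, 264, 0, 0 and 10.5 CPM. CD44, a hyaluronan receptor of the mesenchymal state, had 262, 229, 241, 40.9 and 21.0 CPM. Its CPM at 2 to 4 counts was near that at 0, but with a wide interval (138 to 391). It came from 16 counts in 6 of 23 cells (26.1%), while 38.8% of cells with 0 had CD44. FOSL1, a subunit of AP-1, had 267, 194, 120.4, 61.4 and 73.4 CPM. VIM, the intermediate filament vimentin, had 5902, 5694, 4724, 5404 and 3354 CPM, and its interval lay below those of all other tiers in the last tier alone.

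**Figure D4:**
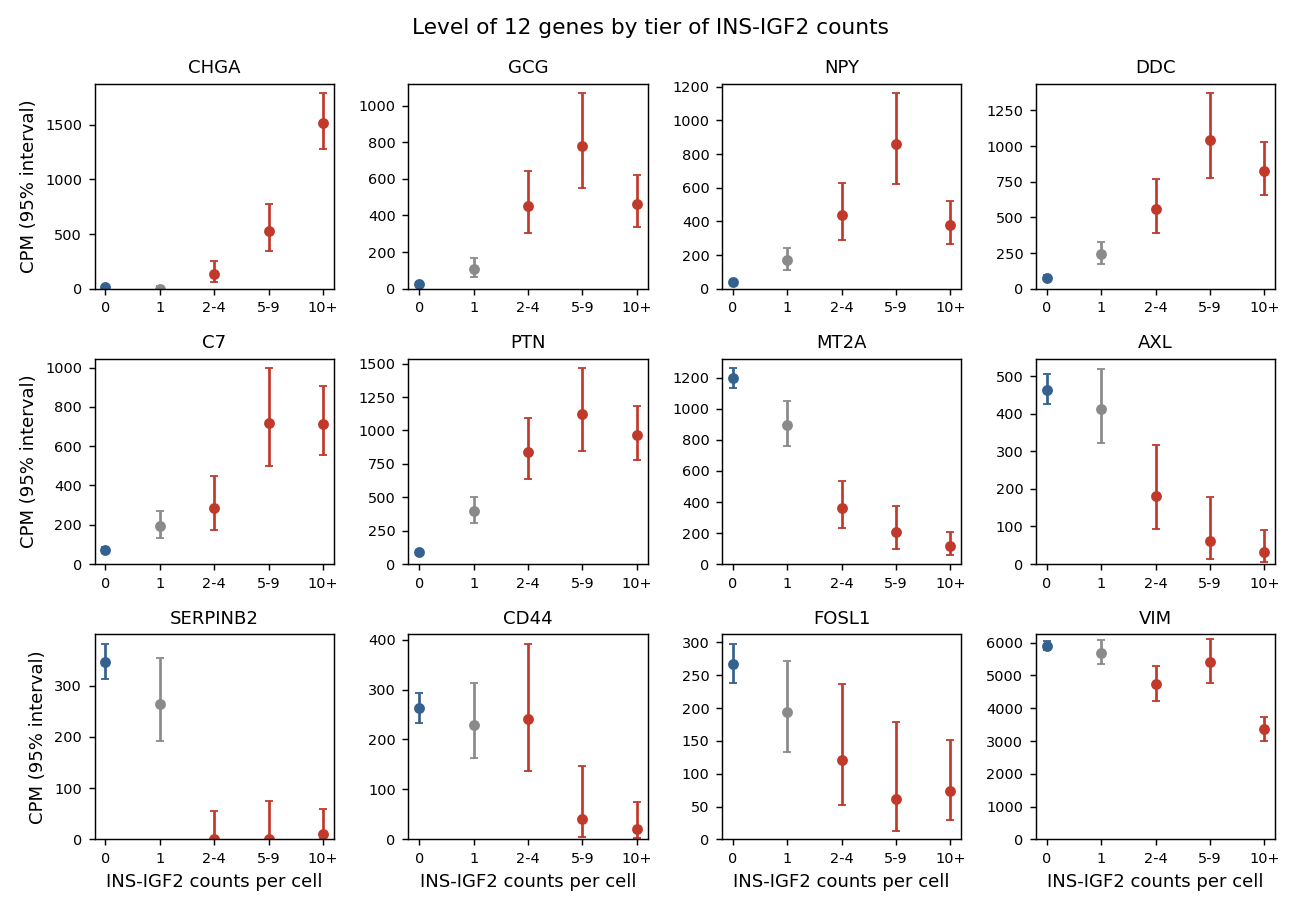
CPM of 12 genes by tier of INS-IGF2 counts per cell, with exact Poisson 95% intervals. CHGA is highest, at 1520 CPM, in cells with 10 or more counts, and GCG, NPY and DDC are highest at 5 to 9 counts. MT2A and AXL are lower in each tier, with overlapping intervals between several neighbouring tiers.

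At the edge of the choice, the 15 cells with 2 counts had 3755 CPM over the 15 higher rows, and the 65 cells with 1 count had 1816 CPM. Over the 15 lower rows the 2-count cells had 853 CPM and the 1-count cells 3496 CPM. Both sets of rows were chosen with the 2-count cells among the positive cells and the 1-count cells left out. The choice favours such a gap, so it is no support for the threshold. The 1-count cells had 0 CHGA counts, but their levels of GCG, NPY, DDC, C7 and PTN lay between those of negative cells and those of cells with 2 to 4 counts. Against the 2-count cells alone, GCG, NPY, DDC and PTN were lower in 1-count cells. C7 was not, with 194 CPM in 1-count cells and 171 CPM, from 8 counts, in 2-count cells.

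Over 560 thinned cells and 2061 rows with a mean of at least 0.1 counts, the rows whose counts went most with INS-IGF2 were PTN (Spearman rho 0.38), DCN (0.33), FAM167A (0.31), CHGA (0.29), PCOLCE (0.29), MIF (0.28), GCG (0.28) and C7 (0.26). PCOLCE enhances procollagen processing, and MIF is a cytokine. The lowest were S100A6 (-0.29), S100A4 (-0.27) and MT2A (-0.25), and the median row was at 0.00. These values describe sparse counts of cells from 1 sample at equal depth. Within the 70 positive cells alone, rho with INS-IGF2 was 0.24 for CHGA, -0.24 for GCG, -0.28 for NPY and -0.15 for DDC, all weak.

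The noradrenergic list of regulators and effectors was higher in positive cells as a sum, with a log2 ratio of 1.18 (1.04 to 1.32) and 0.79 within set 1 and 1.5 within set 2. Of 7 members with 50 counts or more, 4 lay at a log2 ratio of 1 or more and 0 at -1 or less. These shares stand beside 4.32% and 8.21% over all rows. RET, with 36 counts in negative cells, reached 50 counts only through positive cells. The median log2 ratio of the 7 members was 1.07, compared with -0.01 over all rows. Besides DDC and RET, GATA2 had 399 CPM in positive cells and 161 CPM in negative cells (1.31, 0.92 to 1.69) and GATA3 285 CPM in positive cells and 136 CPM in negative cells (1.07, 0.61 to 1.51). Both are zinc finger factors of sympathetic development. HAND2, a basic helix-loop-helix factor of the sympathetic lineage, had 356 CPM in positive cells and 256 CPM in negative cells, a log2 ratio of 0.47 (0.09 to 0.84).

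TBX2 went the other way, with 270.5 CPM in positive cells and 433 CPM in negative cells, a log2 ratio of -0.68 (-1.10 to -0.28). Other enzymes of catecholamine synthesis had few counts or none: TH, its rate-limiting enzyme, had 0 counts in positive cells and 3 in negative cells, and DBH, which makes noradrenaline, had 0 in both. The noradrenaline transporter SLC6A2 had 6 counts in positive cells and 2 in negative cells.

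The dense-core granule list had a summed log2 ratio of 0.89 (0.76 to 1.02). Of 7 members with 50 counts or more, 1 lay at a log2 ratio of 1 or more, CHGA, and 0 at -1 or less. The shares over all rows were 4.32% and 8.21%. CHGA, with 13 counts in negative cells, reached 50 counts only through positive cells. SCG2, secretogranin II, had 1054 CPM in positive cells and 748 CPM in negative cells, a log2 ratio of 0.49 (0.28 to 0.71), and CYB561, the granule membrane cytochrome, 0.64 (0.17 to 1.09). VGF, another granin, was at -0.06 (-0.37 to 0.25) and the amidating enzyme PAM at -0.05 (-0.70 to 0.55), with intervals that span 0. CHGB had 32 counts in positive cells and 5 in negative cells, but 26 of the 32 lay in a single cell. PCSK1N, an inhibitor of prohormone convertase, had 17 counts in 16 positive cells and 5 counts in 5 negative cells. CHGA and SCG2 gave 180 and 222 of the list's 685 counts in positive cells.

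The peptide hormone list had a summed log2 ratio of 2.07 (1.86 to 2.28), with 2.35 within set 1 and 1.79 within set 2. Of 5 members with 50 counts or more, 2 lay at a log2 ratio of 1 or more, GCG and NPY, and 0 at -1 or less. Over all rows these shares were 4.32% and 8.21%. With 28 and 43 counts in negative cells, GCG and NPY reached 50 counts only through positive cells, so their number is no sign of enrichment. GAL, the neuropeptide galanin, had 166 CPM in positive cells and 86.5 CPM in negative cells (0.94, 0.34 to 1.51), and VIP, vasoactive intestinal peptide, had 176 CPM in positive cells and 106 CPM in negative cells (0.73, 0.16 to 1.27). NMB, neuromedin B, was at -0.09 (-0.92 to 0.66). CRH had 14 counts in positive cells and 9 in negative cells, and all 14 lay in 1 cell. Of 31 listed hormones, 19 had 0 counts in both groups.

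Insulin and glucagon are best known from pancreatic islets, so islet genes were listed as well. Of 26, 20 had 0 counts in both groups, among them PDX1, NKX6-1, MAFA, NEUROD1 and SLC30A8. The list had 16 counts in positive cells and 12 in negative cells, of group totals of 210725 and 1155405. Its summed log2 ratio was 2.87 (1.70 to 4.08), or 4.33 (2.41 to 6.81) without ISL1, from these few counts. ISL1, a factor shared with sympathetic neurons, had 5 counts in positive cells and 9 in negative cells, of the same unequal totals. FEV had 5 counts in positive cells and 1 in negative cells. None reached 50 counts.

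The locus itself gave little beyond the row that chose the cells. IGF2 had a row of its own with 4 counts in 3 positive cells and 0 in negative cells. H19, the imprinted RNA beside IGF2, had 0 counts in both. Of the neighbours, CD81 had 1091 CPM in positive cells and 946 CPM in negative cells (0.21, -0.01 to 0.41), MRPL23 was at -0.08 (-0.59 to 0.40) and CTSD at 0.16 (-0.39 to 0.67). The IGF and insulin list as a sum was at -0.06 (-0.21 to 0.08), and at 0.32 (0.15 to 0.49) without IGFBP4, its member with most counts. Of 12 members with 50 counts or more, 2 lay at a log2 ratio of 1 or more and 1 at -1 or less. The shares over all rows were 4.32% and 8.21%, and the lower count was near its share. The receptor IGF1R had 99.7 CPM in positive cells and 49.3 CPM in negative cells (1.01, 0.22 to 1.76), and the binding protein IGFBP2 323 CPM in positive cells and 132 CPM in negative cells (1.29, 0.86 to 1.72). IGFBP4 had 465 CPM in positive cells and 896 CPM in negative cells (-0.95, -1.26 to -0.65), and IGFBP6 was at -1.55 (-3.21 to -0.26). The insulin receptor INSR had 1 count in positive cells and 5 in negative cells, too few to compare.

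The mesenchymal list was lower as a sum, at -0.44 (-0.52 to -0.36). Of 16 members with 50 counts or more, 0 lay at a log2 ratio of 1 or more and 5 at -1 or less: AXL, CD44, FOSL1, IFI16 and JUN. The shares over all rows were 4.32% and 8.21%. CD44 had 94.9 CPM in positive cells and 262 CPM in negative cells, a log2 ratio of -1.47 (-2.20 to -0.81). FOSL1 had 85.4 CPM in positive cells and 267 CPM in negative cells, a log2 ratio of -1.64 (-2.42 to -0.96). VIM was abundant in both groups, with 4261 CPM in positive cells and 5902 CPM in negative cells, a log2 ratio of -0.47 (-0.57 to -0.37), and had a count in 73 of 74 positive cells. The transcription factors TWIST1 (0.30, -0.33 to 0.88), SNAI1 (0.35, -0.54 to 1.15), TEAD1 (0.23, -0.26 to 0.70) and PRRX1 (-0.22, -1.5 to 0.87) had intervals that span 0. ID2, an inhibitor of helix-loop-helix factors, was higher, at 0.76 (0.37 to 1.14). Part of the list was thus lower in positive cells, and VIM was still found in nearly all of them.

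The matrix list split. Of 24 members with 50 counts or more, 4 lay at a log2 ratio of 1 or more and 4 at -1 or less. Over all rows these shares were 4.32% and 8.21%. The list's sum was -0.22 (-0.30 to -0.14). Besides DCN, the cadherin CDH11 had 133 CPM in positive cells and 25.1 CPM in negative cells (2.40, 1.60 to 3.20), thrombospondin 2 (THBS2) was at 1.54 (0.80 to 2.26) and fibronectin (FN1) at 1.45 (0.72 to 2.16). SPARC, the list's member with the highest level in positive cells, had 1898 CPM in positive cells and 1642 CPM in negative cells (0.21, 0.05 to 0.37). Below lay the protease inhibitors TIMP2 (-1.09, -1.67 to -0.56) and TIMP1 (-0.58, -0.84 to -0.33), and the lectin LGALS1 (-0.93, -1.12 to -0.74). Collagen I (COL1A1) was near equal in the pooled cells (-0.01, -0.41 to 0.38), while its ratio was -1.62 within set 1 and 0.69 within set 2. The chemokine CCL2 was likewise uneven, 1.63 (1.14 to 2.1) pooled, -0.54 within set 1 and 2.67 within set 2. No direction is read for these 2 genes.

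Neuronal cytoskeleton and adhesion genes had a summed log2 ratio of 0.16 (0.04 to 0.29), but -0.01 within set 1 and 0.33 within set 2. Without UCHL1 the pooled sum was 0.55 (0.39 to 0.70). The median of the members with 50 counts or more was 0.62, and 8 of them lay above 0. Of 9 members with 50 counts or more, 2 lay at a log2 ratio of 1 or more and 0 at -1 or less, beside 4.32% and 8.21% over all rows. These were STMN2, a microtubule regulator of growing axons, with 29 counts in positive cells and 22 in negative cells, and PRPH, peripherin. PRPH had 228 CPM in positive cells and 81.4 CPM in negative cells (1.49, 0.95 to 2.0). STMN2 reached 50 counts only through its counts in positive cells. It lay in 10 of 74 positive cells and 15 of 464 negative cells, with no count in positive cells of barcode set 1. TUBB3, neuronal tubulin, had 356 CPM in positive cells and 232 CPM in negative cells (0.62, 0.23 to 0.99), and UCHL1, the list's most abundant member, 1063 CPM in positive cells and 1370.1 CPM in negative cells (-0.37, -0.57 to -0.16).

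**Figure D5:**
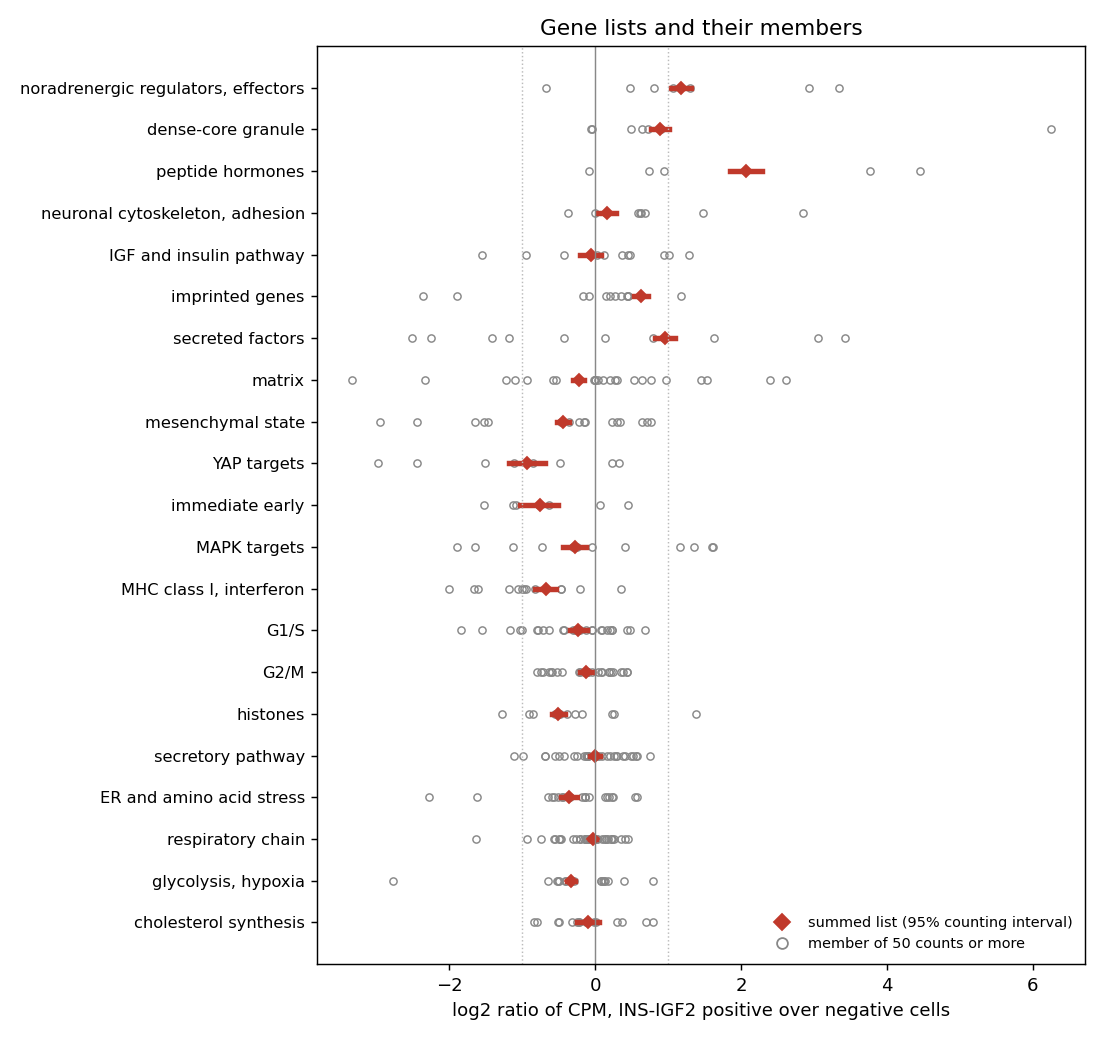
Log2 ratio of CPM in INS-IGF2 positive over negative cells for 21 gene lists (diamonds, summed counts with 95% counting intervals) and their members of 50 counts or more (circles). Peptide hormones, noradrenergic genes and secreted factors lie to the right, YAP targets, immediate early genes and MHC class I genes to the left, and both directions occur within most lists.

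Targets of MAPK signalling lay on both sides. Of 12 members with 50 counts or more, 4 lay at a log2 ratio of 1 or more and 3 at -1 or less. The shares over all rows were 4.32% and 8.21%. The cyclin CCND1 had 323 CPM in positive cells and 144 CPM in negative cells (1.17, 0.74 to 1.58), and the feedback inhibitors DUSP6, SPRY4 and SPRY1 were at 1.62 (0.72 to 2.47), 1.60 (0.76 to 2.40) and 1.36 (0.53 to 2.13). FOSL1 and PHLDA2 were lower, with PHLDA2 at -1.89 (-2.82 to -1.10), and IER3 was at -1.13 (-1.53 to -0.75). The YAP target list was at -0.93 (-1.19 to -0.69) as a sum and at -0.51 without AXL. In it, 4 of 8 members lay at -1 or less, beside 8.21% over all rows. Immediate early genes were at -0.76 (-1.02 to -0.50), or -0.37 without IER3.

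The list of secreted growth factors, cytokines and complement proteins had a summed log2 ratio of 0.96 (0.83 to 1.10), with 0.72 within set 1 and 1.18 within set 2. The markers PTN and C7 gave 203 and 122 of its 605 counts in positive cells. In negative cells they gave 103 and 80 of 1701. The median log2 ratio of its members with 50 counts or more was 0.13, so the sum does not describe the list as a whole. Of 11 members with 50 counts or more, 3 lay at a log2 ratio of 1 or more, PTN, C7 and CCL2, and 4 at -1 or less. Over all rows these shares were 4.32% and 8.21%. MDK, midkine, the relative of PTN, had 669 CPM in positive cells and 387 CPM in negative cells (0.79, 0.51 to 1.07), and C1R, a protease of the complement pathway, was at 0.95 (0.09 to 1.75). TGFB1, transforming growth factor beta 1, had 23.7 CPM in positive cells and 63.2 CPM in negative cells (-1.41, -3.08 to -0.12).

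Antigen presentation genes were lower. The MHC class I and interferon list was at -0.67 (-0.82 to -0.54), with -0.83 within set 1 and -0.60 within set 2. Of 13 members with 50 counts or more, 0 lay at a log2 ratio of 1 or more and 6 at -1 or less. The shares over all rows were 4.32% and 8.21%. The joint row of HLA-C and HLA-B had 171 CPM in positive cells and 518 CPM in negative cells (-1.60, -2.13 to -1.11), and B2M, the light chain of class I, 223 CPM in positive cells and 394 CPM in negative cells (-0.82, -1.29 to -0.38). The immunoproteasome subunits PSMB8 and PSMB9 were at -0.95 (-1.65 to -0.32) and -1.06 (-2.05 to -0.21).

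Among cell division genes, the G2/M list was close to 0 and the G1/S and histone lists were lower as sums. The G2/M list was at -0.12 (-0.20 to -0.03), with 0 of 28 members past 1 in either direction, and MKI67 had 308 CPM in positive cells and 264 CPM in negative cells (0.22, -0.18 to 0.62). The G1/S list was at -0.23 (-0.35 to -0.11), and 5 of 27 members lay at -1 or less, beside 8.21% over all rows. The members with most counts were TK1 (-0.78, -1.18 to -0.41) and NASP (0.48, 0.14 to 0.81). Histone genes were at -0.50 (-0.59 to -0.42): HIST1H4C had 1718 CPM in positive cells and 3223 CPM in negative cells (-0.91, -1.07 to -0.75), whereas HIST1H2BK was higher (1.38, 0.95 to 1.81).

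Markers of other cell types were checked in the same cells. Schwann precursor markers had 0 counts in positive cells and 22 in negative cells, over 5 of 15 genes. Adrenal cortex markers had 1 count in positive cells and 26 in negative cells, all from FDX1. Endothelial markers were higher as a sum, with 71.2 CPM in positive cells and 20.8 CPM in negative cells, a log2 ratio of 1.78 (0.74 to 2.77). They had 15 counts in positive cells and 24 in negative cells, of which FLT1, a VEGF receptor, gave 14 in positive cells and 20 in negative cells. Immune markers were higher as a sum too, with 133 CPM in positive cells and 65.8 CPM in negative cells, a log2 ratio of 1.01 (0.33 to 1.66), or 3.85 (2.61 to 5.23) without CD68. They had 28 counts in positive cells and 76 in negative cells over 5 of 13 genes. PTPRC, the leukocyte phosphatase CD45, had 20 counts in 17 positive cells and 6 counts in 5 negative cells, while CD14 had 1 count in positive cells and 0 in negative cells, and 8 of the 13 genes had 0 in both. The part of cells with PTPRC or FLT1 counts in the other results was not tested. The epithelial list had 49 counts in positive cells and 545 in negative cells, a log2 ratio of -1.02 (-1.47 to -0.60). Keratin 18 (KRT18) had 176 CPM in positive cells and 377 CPM in negative cells (-1.10, -1.63 to -0.62), and the claudin CLDN4 was at -2.33 (-5.41 to -0.40).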

How the data were processed

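MARS-seq libraries of untreated SK-N-AS cells were read as 1 table of 603 cells and 27044 rows, of which 13642 had a count. The table deposited by the authors holds raw counts as whole numbers. Alignment used hg19 and Bowtie2 2.1.0, per the submitters' processing notes. How reads were counted, with which annotation and cell filter, and whether a count is a molecule or a read, were not given in the sources used here. Cells were told apart by column, because barcodes repeat. A row naming no gene held 2 counts and was left out.

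Counts were summed over cells of a group and scaled to CPM without the row that chose the cells. Log2 ratios carry exact conditional binomial intervals, CPM exact Poisson intervals and shares of cells exact Clopper-Pearson intervals, all at 95% and for counting error only. A ratio of 0.00 means equal CPM. Rows with at least 50 counts were compared, and named rows had a count in at least 10 cells. The 15 rows with the highest lower bound and the 15 with the lowest upper bound were named, with the marker genes and, per list, the members farthest from 0. Of the 15 lower rows 1 is not reported here by name, nor are some list members. Further list members were named after their values were seen. For shares, each cell was drawn down without replacement to 1100 counts, and 43 shallower cells were left out. No doublet caller was run, since cells were sorted singly into wells. Members, motifs and gene lists were chosen with earlier results of these data known. Alternatives changed the group thresholds, depth range, scaling, row minimum and barcode set. The ratio and its interval were tested on simulated data. Python 3.11.15, numpy 2.4.6, scipy 1.17.1 and matplotlib 3.10.9 were used.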

Additional observations from a re-analysis of the deposited data

How the results depend on the processing

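With 186 rows at a log2 ratio of 1 or more and 353 at -1 or less, other settings moved the counts. Barcode set 1 alone gave 92 and 234, and set 2 alone 92 and 205, each with fewer cells and fewer rows compared. Cells with totals of 1500 to 4000 gave 107 higher rows. A minimum of 20 counts gave 560 and 730, a minimum of 100 counts gave 66 and 146, and a threshold of 0.58 on the log2 scale gave 590 and 744. Of rows past the threshold, 34.5% were higher in positive cells at the settings used, 43.4% with a minimum of 20 counts and 44.2% with a threshold of 0.58. Positive cells of 2 to 9 counts only, an alternative chosen after seeing the data, gave 177 and 407. Of 380 values of single named rows under these alternatives, 354 stayed within the interval of the pooled value, 26 did not, and 0 changed sign. These rows were chosen as extremes on the same cells, so a kept sign is no independent check. Settings that left a row at 0 counts in a group gave no ratio and are not among the 380. Of 390 values of lists, 56 moved and 20 changed sign, all of them among lists whose ratio at the settings used lay between -0.12 and 0.16. No paired analysis was possible because the columns carry no replicate number. No replicate could be left out, since all cells belong to 1 sample. Depth limits genes with few counts: 3 counts, the limit that a count of 0 allows, are 14.2 CPM in positive cells and 2.60 CPM in negative cells.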

Other observations

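Beyond the genes described, the rows with most counts held a second layer of differences. Of 441 rows with 500 counts or more, MIF had 3963 CPM in positive cells and 1352 CPM in negative cells, a log2 ratio of 1.55 (1.43 to 1.67) that was 1.99 within set 1 and 1.08 within set 2. PCOLCE had 1376 CPM in positive cells and 425 CPM in negative cells (1.70, 1.48 to 1.91), and ASS1, the urea cycle enzyme that joins citrulline and aspartate, had 1694 CPM in positive cells and 763 CPM in negative cells (1.15, 0.97 to 1.33). GNAS, an imprinted gene for the stimulatory G protein alpha subunit, had 3336 CPM in positive cells and 1477 CPM in negative cells (1.18, 1.05 to 1.30). SNRPD3, a core protein of spliceosomal RNPs, completed the 5 rows at 1 or more, with 1.10 (0.86 to 1.34). GNAS carried the imprinted list, whose sum was 0.63 (0.53 to 0.72) with it and 0.11 without. MEST and PHLDA2, both imprinted, were at -2.35 (-5.43 to -0.43) and -1.89 (-2.82 to -1.10).

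Of genes for calcium-binding S100 proteins, 3 were among the rows of 500 counts or more at -1 or less: S100A6 had 2164 CPM in positive cells and 5863 CPM in negative cells (-1.44, -1.58 to -1.30), S100A4 2159 CPM in positive cells and 5112 CPM in negative cells (-1.24, -1.38 to -1.11) and S100A16 959 CPM in positive cells and 2059 CPM in negative cells (-1.10, -1.32 to -0.90). S100A10 and S100A11 were at -0.88 and -0.55, and S100A13, with fewer counts, was at 0.23. The surface glycoprotein THY1 had 233 CPM in positive cells and 713 CPM in negative cells (-1.62, -2.06 to -1.20), and the chromatin protein HMGA1 342 CPM in positive cells and 1019.6 CPM in negative cells (-1.58, -1.94 to -1.23). The integrin subunit ITGA3 was at -1.92 (-2.54 to -1.37), and the ferritin heavy chain FTH1 at -1.21 (-1.59 to -0.85). Summed log2 ratios lay close to 0 for 3 housekeeping lists: secretory pathway 0.00 (-0.06 to 0.07), respiratory chain -0.03 (-0.07 to 0.01) and cholesterol synthesis -0.09 (-0.24 to 0.06). The p53 target list had a sum of -0.01 (-0.28 to 0.26), or 0.21 without CDKN1A, but its 7 members with 50 counts or more had a median of -0.87. Of these 7, 1 lay at 1 or more and 2 at -1 or less, beside 4.32% and 8.21% over all rows. Glycolysis genes were at -0.33 (-0.39 to -0.27), with GAPDH at -0.40 (-0.50 to -0.30) and PKM2 at -0.52 (-0.66 to -0.38), and the ER and amino acid stress list was at -0.36 (-0.47 to -0.25). The nicotinic and neurotrophic receptor list was at 2.77 (2.39 to 3.15), with 2.26 within set 1 and 3.54 within set 2. CHRNA3 and RET gave 61 and 50 of its 133 counts in positive cells.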
